A study of Mus musculus with 20 samples.

Results

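Ribosome biogenesis and nucleolar genes were followed in bone marrow RNA from mice carrying T lineage acute lymphoblastic leukemias (T-ALLs) induced by insertional mutagenesis (IM). The 42 genes were fixed by their mouse symbols. A row was found for 42 of 42 among the 39017 genes of the deposited table. All 42 were also among the 11339 genes that averaged 1 FPKM or more (counts scaled to exon length and library total), over which tests were made. The smallest count of a member in any library was 160.

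The leukemias arose in C57Bl/6 x 129Sv/Jae F1 mice that received the MOL4070LTR retrovirus as pups. Cells of each primary leukemia were transplanted into irradiated wild-type recipients of the same cross, and RNA was extracted from the recipients' marrow. The labels give neither a genotype nor a treatment for a leukemia. Of the 20 libraries, 18 came from the 9 leukemias described here, JW14, JW81, 8633, 5C, 78A, 2M, 20M, 73M and 73A, with 1 column named VEH and 1 named DEX for each. These letters are explained neither in the labels nor in the study's text, and they are used below as column names alone. Since each leukemia is the growth of 1 tumour and has 1 library of each name, the unit of replication was the leukemia. The other 2 libraries, from leukemia 4638, were kept apart because the study's text does not name this leukemia. Of the 9 used, that text names only 73M and JW81, and results with 4638 added are given as an alternative.

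Ribosomes are built in the nucleolus, where RNA polymerase I transcribes a long ribosomal RNA precursor. Small nucleolar ribonucleoproteins (snoRNPs) modify this precursor, and sets of assembly factors fold, cleave and package it into the small (40S) and large (60S) subunits. MYC, a transcription factor that is often highly expressed in T-ALL, is known to bind the promoters of many of these genes at the E-box sequence.

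Library totals ranged from 8226528 to 201222288 counts. Nuclear ribosomal RNA genes were at 21.6 to 64.05 counts per M counts (CPM) in 5 libraries, namely DEX of JW81, JW14, 73M and 20M and VEH of 5C, and at 0.00497 or less in the other 13. The libraries of 8633 resembled those of JW14 (Pearson's r across genes of 0.953 to 0.981) about as closely as the 2 libraries of 1 leukemia resembled each other (0.927 to 0.990), while 140 pairs of libraries from other leukemias gave 0.807 to 0.958. The tumour label was checked with T lineage markers, and *Lck*, a kinase of the T-cell receptor, was at 115 to 325 FPKM in the 18 libraries. The score over 12 T lineage markers, the mean of log2(FPKM + 1), was 4.38 to 5.83 in VEH and 4.36 to 5.72 in DEX libraries. Among these markers *Cd8a* was at 0.1004 FPKM in JW14 and *Cd7* at 0.163 FPKM in 5C, the lowest leukemia for each. The score over 11 myeloid markers was 0.645 to 3.07 in VEH and 0.54 to 2.78 in DEX libraries. The B lineage (9 markers) and erythroid (10 markers) scores reached 1.57 and 4.56 in the VEH library of 73M. *Pax5* was at 0 FPKM in 8633, *Igll1* in 5C and *Elane* in JW14, the lowest leukemia for each. In the highest leukemia they were at 0.448 FPKM (*Pax5*, 73M), 0.107 FPKM (*Igll1*, 73M) and 42.4 FPKM (*Elane*, 73A). Markers of other cells thus differed between leukemias and were not absent from all of them. In bulk RNA, fewer cells of a type and less RNA per cell cannot be told apart.

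The E-box CACGTG, the same on both strands, was searched in RefSeq promoter windows from 250 bases before to 50 bases after an annotated start (GRCm38.p6). A window was matched for 37 of the 42 members, and 8 of them held the E-box (21.6%), against 12.1% of the tested genes with a window. The stretches around the 8 E-boxes are shown because they hold the letters MYC is known to bind. The E-box is in capitals, and each stretch is read 5′ to 3′ on the strand of its gene.
*Nop2*, chr6:125131811-125131840, plus strand: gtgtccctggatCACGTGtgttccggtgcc
*Utp4*, chr8:106893643-106893672, plus strand: tgcgcaagcgcgCACGTGgggccggggcgg
*Utp20*, chr10:88826765-88826789, minus strand: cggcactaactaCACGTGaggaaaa
*Pes1*, chr11:3963965-3963994, plus strand: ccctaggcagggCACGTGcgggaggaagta
*Mybbp1a*, chr11:72441355-72441376, plus strand: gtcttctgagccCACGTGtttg
*Tsr1*, chr11:74898092-74898121, plus strand: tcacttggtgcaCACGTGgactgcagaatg
*Utp18*, chr11:93885769-93885798, minus strand: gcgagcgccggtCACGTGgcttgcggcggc
*Wdr43*, chr17:71616220-71616249, plus strand: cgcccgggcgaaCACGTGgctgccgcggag
In *Nop2* and *Utp18* the E-box lay before the start used (60 and 20 bases), and in the other 6 genes after it. The ETS motif CCGGAAG was found for 37.8% of the 37 members with a window and 23.2% of tested genes with one. The SP1 motif GGGCGG was found for 78.4% and 69.0%. Both strands were counted, and a gene counted if any of its windows held the motif. A match gives the letters of a window and does not show that a factor binds there.

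As levels, averaged over the 2 libraries of a leukemia and then over the 9 leukemias, the members spanned 6.70 to 411 FPKM with a median of 18.3, and the median member stood at percentile 78.3 of the tested genes. They took 0.271% to 0.939% of the counts of a library. The 3 highest were *Npm1*, a histone chaperone that shuttles through the nucleolus, at 411 ± 157 FPKM (SD, n = 9 leukemias), *Ncl*, the nucleolar RNA-binding protein nucleolin, at 84.9 ± 29.1 FPKM (SD, n = 9), and *Nop56*, a core protein of box C/D snoRNPs, at 65.4 ± 22.1 FPKM (SD, n = 9). The 3 lowest were *Rrp1b* at 6.70 ± 2.09, *Wdr12* at 6.81 ± 3.13 and *Noc3l* at 7.22 ± 2.65 FPKM (SD, n = 9 each), all factors of 60S assembly. Merged exon lengths entered these values, taken over all annotated transcripts, so a gene with long exons outside its main messenger RNA is set low. This may hold for *Wdr12* with 11955 bases, *Polr1a* with 11871, *Nop58* with 10758, *Utp20* with 10199 and *Ncl* with 10188. *Npm1* had 2665. Rankings of level between genes are limited by this.

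RNA polymerase I was represented by *Polr1a* and *Polr1b*, its 2 large subunits, at 8.89 ± 3.04 and 12.6 ± 6.59 FPKM (SD, n = 9). Of the box C/D group, *Fbl*, the methyltransferase fibrillarin, was at 26.8 ± 11.7 FPKM and *Nop58*, partner of *Nop56*, at 20.1 ± 8.66 FPKM. *Dkc1*, the pseudouridine synthase dyskerin of H/ACA snoRNPs, was at 36.6 ± 16.2 FPKM, and *Nolc1*, a chaperone of snoRNPs, at 33.1 ± 14.9 FPKM. The snoRNP genes named here lay above the polymerase subunits and well below *Npm1* in FPKM, with the limit of exon length given above. *Gar1*, also of the snoRNP group, was at 9.94 FPKM, below *Polr1b*.

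In the remaining groups, *Npm3*, a relative of *Npm1*, was at 57.2 ± 23.9 FPKM, the helicase *Ddx21* at 64.4 ± 27.6 FPKM and the GTPase *Gnl3* (nucleostemin) at 20.0 ± 9.26 FPKM (SD, n = 9 each). The small subunit factors *Utp20*, *Rrp9* and *Rrp12* were at 11.6 ± 3.74, 9.004 ± 3.57 and 10.2 ± 4.95 FPKM. *Bysl*, which acts late in 40S assembly, was at 7.27 ± 1.88 FPKM and *Nob1*, the endonuclease that makes the mature end of 18S ribosomal RNA, at 10.9 ± 3.07 FPKM. For the large subunit, *Bop1* and *Pes1*, which with *Wdr12* form the PeBoW complex, were at 30.7 ± 17.2 and 32.6 ± 10.3 FPKM, against 6.81 FPKM for *Wdr12*. *Nop2*, a methyltransferase of 60S precursors, was at 26.5 ± 10.8 FPKM, *Rrs1* at 13.1 ± 3.81 FPKM and *Ppan* at 12.3 ± 8.39 FPKM.

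Transcripts of other loci can share reads with some members. Exons of 21 of the 42 overlapped exons of another gene. The overlap was on the opposite strand and over 32.3% of the exon length for *Tsr1* (with *Srr*), 20.9% for *Noc2l* (with *Samd11*) and 9.37% for *Bysl* (with *Ccnd3*), and it was 8.12% or less for the others. Over all libraries *Ccnd3* held 1141% of the counts of *Bysl* and *Srr* 19.3% of those of *Tsr1*. Whether the counting used strand is not given in the sources used here, so the values of such genes, and of these 3 most of all, are uncertain. Stretches of at least 200 bases at 95% identity or more were also sought in transcripts of other genes. *Npm1* had them in 5 genes, and the 3 of these in the table held 0.0973% of its counts. *Fbl* had them in 2 genes that together held 542% of its counts, and *Wdr12* in 6 genes, 4 of them in the table with 216.2% of its counts. How far such stretches moved reads between genes was not tested, and the values of *Fbl* and *Wdr12* are uncertain as well.

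The members varied together from leukemia to leukemia. The score over the 42 members, the mean of their log2(FPKM + 1), was 4.36 ± 0.50 (SD, n = 9 leukemias), lowest in 20M (3.70) and highest in JW14 (5.12). In ascending order the scores were 3.92 for 73M, 4.08 for 2M, 4.16 for 78A, 4.20 for 73A, 4.21 for JW81, 4.78 for 5C and 5.03 for 8633. The 3 highest leukemias were thus separate from the other 6 by 0.57, whereas 2M, 78A, 73A and JW81 lay within 0.14 of each other, less than the VEH and DEX libraries of any of them differed. The same 3 had the lowest T lineage scores (4.38, 4.62 and 4.63 in VEH libraries of 5C, 8633 and JW14, against 4.84 or more in the others), and JW14 and 8633 the lowest myeloid scores in VEH libraries (0.645 and 1.30). The part of these markers in the members' levels was not tested.

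**Figure D1:**
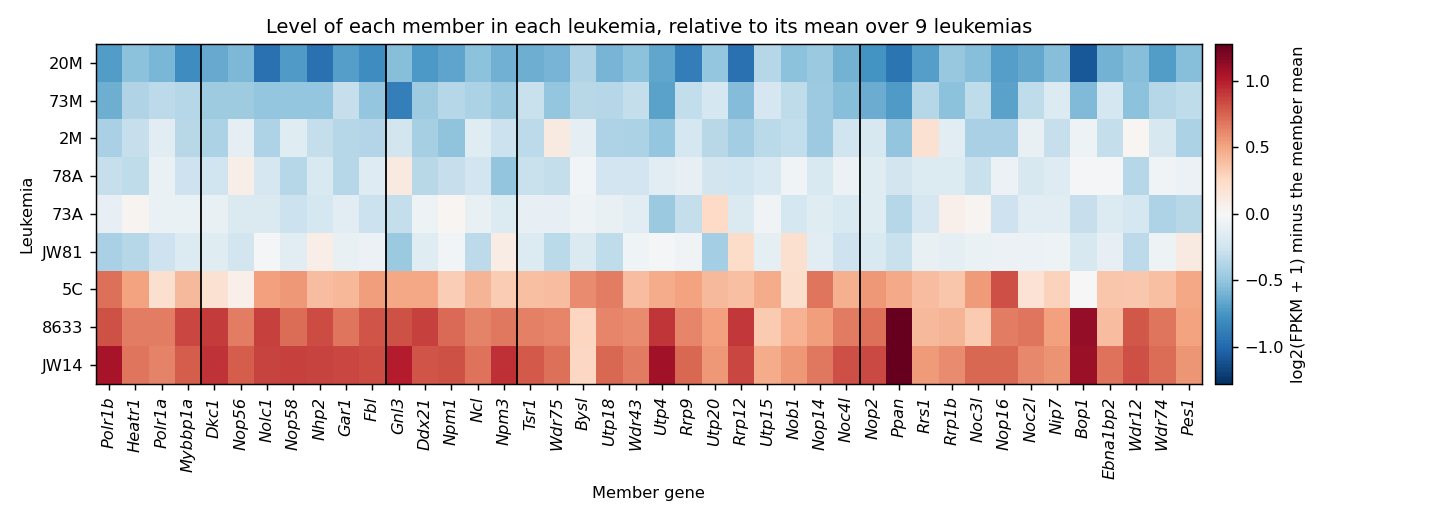
Level of each member (columns, grouped by role) in each of 9 leukemias (rows, ordered by mean score), as log2(FPKM + 1) minus the member's mean over the leukemias, so red is above and blue below that mean. The rows of 20M and 73M are blue and those of 5C, 8633 and JW14 red across nearly every member, with *Bop1* near its mean in 5C and *Bysl* redder in 5C than in 8633 or JW14.

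With the mean difference of DEX and VEH libraries in the model, all 42 members differed between leukemias (edgeR's quasi-likelihood F test, Benjamini-Hochberg adjusted p of 0.00269 or less), as did 82.5% of all genes tested. The SD between leukemias exceeded the median size of the change within them in 38 members, and not in *Bysl*, *Rrs1*, *Rrp1b* and *Nop2*. The lowest leukemia was 20M for 38 members and 73M for 4. The highest was JW14 for 31, 8633 for 7 and 5C for 4. Both 8633 and JW14 lay above each of the other 7 leukemias in 36 of 42 members, against 14.8% of tested genes. Without 8633 and JW14, 41 of 42 members differed between the remaining 7 leukemias, as did 69.8% of genes tested.

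The widest spread belonged to *Ppan*, a 60S assembly factor. It was at 5.12 FPKM in 20M, 26.3 FPKM in both 8633 and JW14 and at most 14.8 FPKM in the other leukemias, with an SD of 0.82 on the log2(FPKM + 1) scale. *Bop1* followed with an SD of 0.72, from 12.5 FPKM in 20M to 60.3 FPKM in 8633 and 59.3 FPKM in JW14, and at most 27.2 FPKM elsewhere. *Utp4*, a small subunit processome protein, had an SD of 0.67 (9.43 FPKM in 73M to 34.2 FPKM in JW14).

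The narrowest spreads were those of *Bysl* (SD 0.32, 5.36 FPKM in 20M to 11.1 FPKM in 5C), *Utp15* (SD 0.34, 7.35 FPKM in 20M to 13.9 FPKM in 5C) and *Nob1* (SD 0.38, 7.06 FPKM in 20M to 15.8 FPKM in JW14). In *Bysl* the 2 leukemias that led most other members, 8633 and JW14, were at 8.69 and 8.62 FPKM, below 5C. The value of *Bysl* is uncertain for its overlap with the more abundant *Ccnd3*. As a description over 9 leukemias, a member's level had a median r of 0.970 (0.870 to 0.994) with the mean of the other members, and 0.941 over the 7 leukemias other than 8633 and JW14. Tested genes had medians of -0.11 and -0.04 with the score over the same leukemias. The points share libraries and their totals.

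Between the libraries of 1 leukemia, the members were lower in the DEX than in the VEH library in most leukemias. The DEX minus VEH change of the score averaged -0.26 ± 0.24 (SD, n = 9) and was negative in 8 of 9 leukemias. The change was -0.60 for 20M, -0.58 for 73A, -0.41 for 2M, -0.33 for 78A, -0.22 for JW81, -0.19 for 73M, -0.11 for 5C and -0.01 for 8633, against 0.12 for JW14. All 42 members were lower in the DEX library of 2M and of 73A, 41 for 20M and for 78A, 33 for 73M and for JW81, 31 for 5C, 20 for 8633 and 12 for JW14. Between 46.4% and 59.8% of tested genes were lower in DEX in these leukemias.

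**Figure D2:**
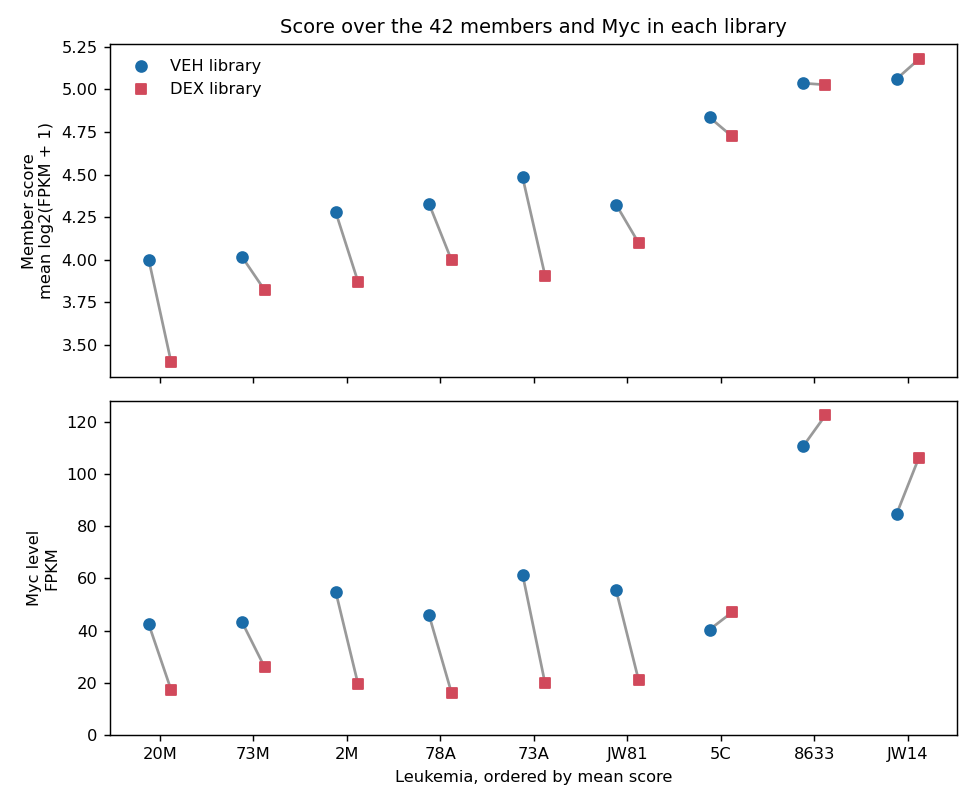
Score over the 42 members (upper panel, mean log2(FPKM + 1)) and *Myc* level (lower panel, FPKM) in the VEH library (circles) and DEX library (squares) of each of 9 leukemias, ordered by mean score, with a grey line joining the pair. The score is lower in DEX in every leukemia but JW14, and *Myc* is lower in DEX in 6 leukemias and higher in 5C, 8633 and JW14.

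With leukemia as a block, 16 of the 42 members fell in the DEX libraries at an adjusted p under 0.05 (edgeR's quasi-likelihood test with Benjamini-Hochberg adjustment over all genes tested), and 0 rose. Over all genes tested, 13.0% passed in either direction and 6.79% passed and were lower in DEX. Of the members 23 were lower at an unadjusted p under 0.05 and 0 higher. The share of all tested genes at that unadjusted cut was not counted, here or in the settings below. DESeq2 called 19 members lower and 0 higher, with 10.1% of all genes lower by DESeq2. The log2 fold change was negative in 38 of 42 members, against 49.1% of tested genes, and its median was -0.23 against 0.0039. The 26 members that did not pass had log2 fold changes from -0.31 (*Wdr43*, edgeR adjusted p = 0.062) to 0.07. The ranges of the VEH and DEX libraries overlapped in 42 of 42 members, and the share of all tested genes with such an overlap was not counted.

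*Gnl3* had the largest fold change of the members. It was at 11.6 to 36.4 FPKM in VEH libraries (median 21.8) and at 6.92 to 36.5 FPKM in DEX libraries (median 10.51), a log2 fold change of -0.63 (SE 0.15, edgeR adjusted p = 0.020). In 20M it was at 19.7 FPKM in VEH and 6.92 in DEX, and in JW14 at 36.4 and 36.5. *Nop2* was at 19.3 to 45.1 FPKM in VEH (median 27.2) and 9.76 to 44.1 FPKM in DEX (median 16.8), a log2 fold change of -0.51 (SE 0.09, edgeR adjusted p = 0.0077). *Nop2* was lower in DEX in 9 of 9 leukemias, though by under 0.001 in JW14.

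*Polr1b* was at 8.88 to 23.7 FPKM in VEH (median 11.1) and 4.38 to 24.5 FPKM in DEX (median 7.12), with a log2 fold change of -0.49 (SE 0.11, edgeR adjusted p = 0.015). The gene of the largest subunit, *Polr1a*, was lower in DEX in 8 of 9 leukemias as well, but its log2 fold change of -0.19 (SE 0.08) missed the threshold (edgeR adjusted p = 0.13). *Heatr1*, which links polymerase I transcription with processing, fell by 0.26 on the log2 scale (edgeR adjusted p = 0.026), and *Mybbp1a*, a nucleolar protein that binds MYB, was at -0.10 (edgeR adjusted p = 0.48). The polymerase I group thus had 2 of 4 members past the threshold.

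Of the 7 snoRNP members 2 passed, *Dkc1* with a log2 fold change of -0.35 (SE 0.10) and *Nop56* with -0.34 (SE 0.09), both at edgeR adjusted p values under 0.04 (0.039 and 0.030). *Dkc1* was at 28.7 to 65.7 FPKM in VEH (median 35.3) and at 15.4 to 64.4 FPKM in DEX (median 24.7). The other 3 named members of the group had log2 fold changes of -0.29 (*Nolc1*), -0.25 (*Nop58*) and 0.02 (*Fbl*) and did not pass. *Fbl* was higher in DEX in 5 of 9 leukemias, and its log2 fold change changed sign with other settings.

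Among the nucleolar chaperones and organisers *Gnl3* and *Ddx21* passed, the latter with a log2 fold change of -0.29 (SE 0.08, edgeR adjusted p = 0.046). The 2 most abundant members did not pass. *Npm1* was at 286 to 695 FPKM in VEH (median 392) and 205 to 659 FPKM in DEX (median 343), with a log2 fold change of -0.12 (SE 0.07, edgeR adjusted p = 0.24), and *Ncl* at -0.02 (SE 0.07, edgeR adjusted p = 0.87). *Npm3* was at 0.07 (SE 0.08, edgeR adjusted p = 0.56).

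Of the 13 small subunit members 5 passed. *Tsr1*, a factor of late 40S maturation, was at 20.4 to 43.9 FPKM in VEH (median 25.4) and 10.8 to 42.2 FPKM in DEX (median 18.2), a log2 fold change of -0.42 (SE 0.11, edgeR adjusted p = 0.028). *Wdr75* and *Utp18*, proteins of the early processome, had log2 fold changes of -0.42 (SE 0.08, edgeR adjusted p = 0.0090) and -0.36 (SE 0.08, edgeR adjusted p = 0.013). These 3 genes and *Nop2* were the 4 members that were lower in DEX in 9 of 9 leukemias, against 4.93% of tested genes. *Bysl* had a log2 fold change of -0.39 and *Utp4* of -0.31 (edgeR adjusted p = 0.026 for both), while *Utp20* (-0.22, edgeR adjusted p = 0.052), *Rrp9* (-0.24), *Rrp12* (-0.16) and *Nob1* (-0.14) did not pass.

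Of the 13 members in 60S assembly 5 passed. Besides *Nop2* they were *Ppan* (log2 fold change -0.41, SE 0.12, edgeR adjusted p = 0.045), *Rrs1* (-0.37, SE 0.11, 0.045), *Rrp1b* (-0.36, SE 0.09, 0.025) and *Noc3l* (-0.33, SE 0.08, 0.026). *Ppan* was at 6.45 to 27.6 FPKM in VEH (median 10.7) and 3.46 to 28.7 FPKM in DEX (median 6.44). The PeBoW genes were at -0.13 (*Bop1*), 0.02 (*Pes1*) and -0.10 (*Wdr12*), and none of these 3 passed.

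**Figure D3:**
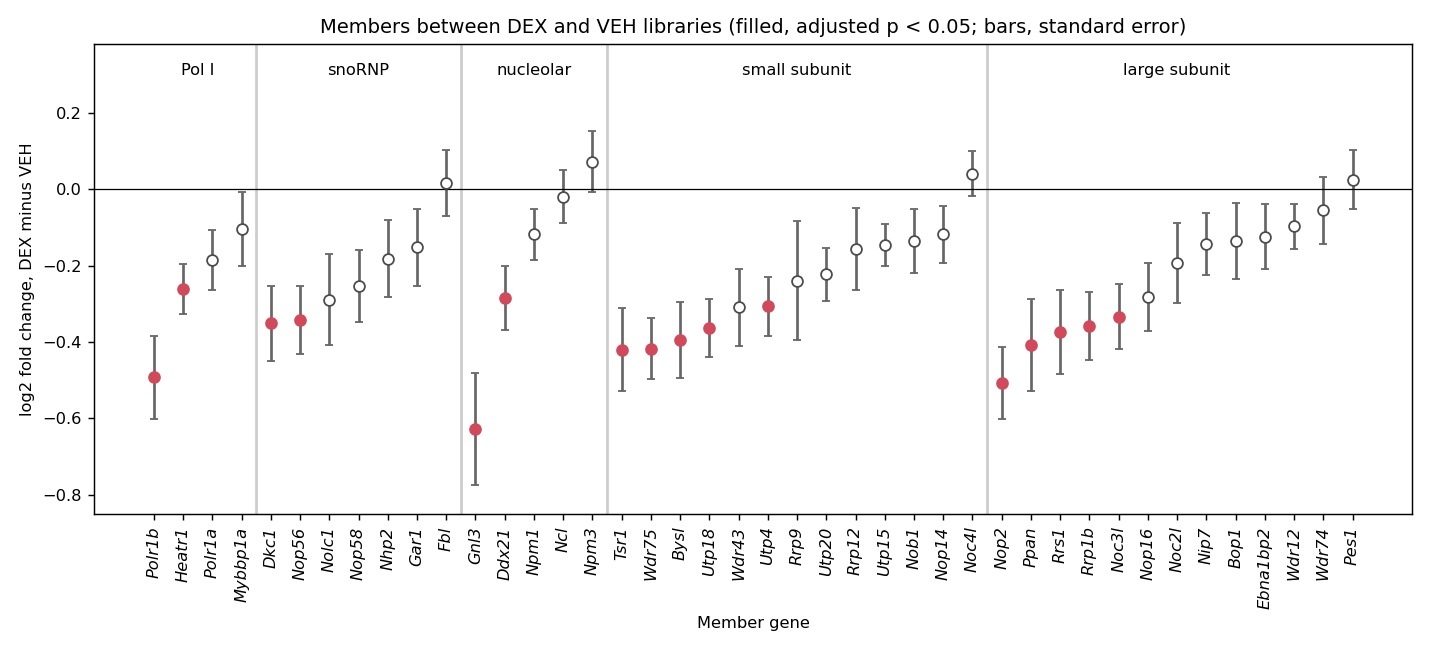
Log2 fold change of each of the 42 members in DEX against VEH libraries (edgeR, 9 leukemias, leukemia as a block), ordered within roles, with bars for the standard error and filled points for an adjusted p under 0.05. The 16 filled points lie between -0.63 (*Gnl3*) and -0.26 (*Heatr1*), and 4 members, *Fbl*, *Npm3*, *Noc4l* and *Pes1*, lie above 0.

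The count of members that fell changed when single leukemias or the libraries with ribosomal RNA were treated otherwise. It was 5 without 20M (2.95% of all genes were lower), 4 without 2M (3.4%), 4 without 73A (3.29%), 8 without 73M (3.8%) and 8 without JW81 (4.51%), while the median log2 fold change of the members stayed between -0.19 and -0.24 and 37 to 40 of 42 were negative. The DEX columns of 2M and 73A were matched to these leukemias by name alone, since the rest of each column name is in no label. Without both leukemias the count was 0 by edgeR (0.882% of all genes lower), with 17 members lower at an unadjusted p under 0.05, a median of -0.15 and 36 of 42 negative. With the 5 libraries above 1 CPM of ribosomal RNA as a term it was 2, *Nop2* and *Wdr75*, with 1.98% of all genes lower, while the median log2 fold change of the members was -0.21 and 41 of 42 were negative. In the 4 leukemias without such a library it was 4, *Nop2*, *Polr1b*, *Ppan* and *Rrp1b*, with 1.96% of all genes lower, a median of -0.32 and 42 of 42 negative. In the 5 leukemias with one it was 0 by edgeR, with 12 members lower at an unadjusted p under 0.05, a median of -0.16 and 34 of 42 negative. Without 8633 and JW14 it was 19 (5.43%), and with libraries thinned to the smallest total 14 (5.47%). The T lineage score was lower in DEX in 8 of 9 leukemias (mean change -0.08), the myeloid score in 6 (-0.19), the B lineage score in 5 (-0.15) and the erythroid score in 4 (-0.28). In 73M the B lineage score changed by -0.99 and the erythroid score by -2.32, and without it the means were -0.04 and -0.02. Their part in the members' change was not tested.

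*Myc*, at 40.4 to 111 FPKM in VEH libraries (median 55.0) and 16.04 to 123 FPKM in DEX libraries (median 21.1), was lower in DEX in 6 leukemias and higher in 3. It was lower in DEX in 20M (42.5 to 17.2 FPKM), 2M (55.0 to 19.4), 73A (61.5 to 19.8), 73M (43.1 to 25.9), 78A (45.8 to 16.04) and JW81 (55.5 to 21.1). It was higher in DEX in 5C (40.4 to 47.0 FPKM), 8633 (111 to 123) and JW14 (84.6 to 106). Over the 9 leukemias its log2 fold change was -0.77 (SE 0.23, edgeR adjusted p = 0.048).

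In the 6 leukemias in which *Myc* was lower, the score changed by -0.60 to -0.19, and 28 of 42 members were lower in DEX in 6 of 6, against 15.4% of tested genes. In the 3 in which *Myc* was higher, the score changed by -0.11, -0.01 and 0.12. These 3 were also the leukemias with the highest scores in their VEH libraries (4.84, 5.04 and 5.06), and 2 of them, 8633 and JW14, resemble each other, so in these 9 leukemias the change of *Myc*, the level of the members and that resemblance cannot be told apart. In 4638, kept apart, *Myc* was higher in DEX by 0.23 on the log2(FPKM + 1) scale, the VEH score was 4.23 and the score changed by -0.04.

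**Figure D4:**
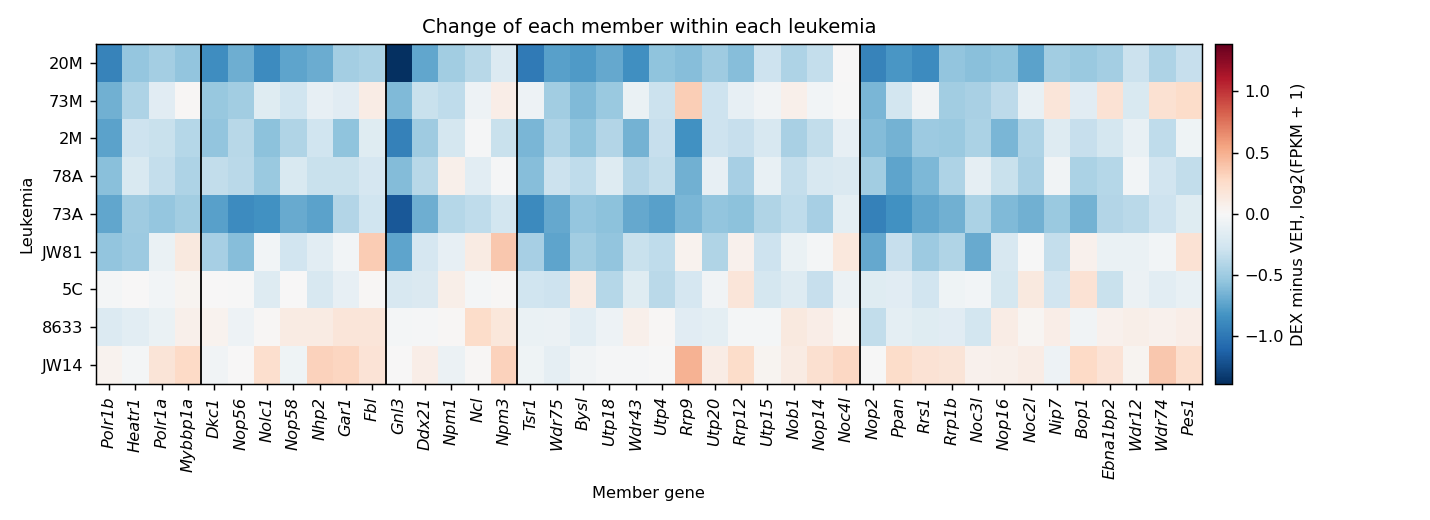
DEX minus VEH difference in log2(FPKM + 1) of each member (columns, grouped by role) in each of 9 leukemias (rows, ordered by mean score), blue for lower and red for higher in DEX. The rows of 20M, 2M, 78A and 73A are blue across nearly all members, deepest for *Gnl3* in 20M (-1.39), while the rows of 8633 and JW14 are close to white or red.

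The score changes were set against the *Myc* changes within leukemias. With the *Myc* difference as a covariate (limma, 9 leukemias), 0 of 42 members passed an adjusted p of 0.05, and 0.0% of all genes tested did. At an unadjusted p under 0.05 the slope was positive for 30 members (71.4%), against 11.1% of tested genes in either direction. All 42 slopes were positive, with a median of 0.27 per log2 unit of *Myc*. The *Myc* changes fell into a group of 6 leukemias (-1.59 to -0.71) and a group of 3 (0.15 to 0.33), so no r is given over all 9. Over the 6, as a description, the score change had r = 0.54 and Spearman's rho = 0.43 with the *Myc* change, and r = 0.075 without 73M. Members moved with each other within leukemias, each with a median r of 0.875 with the mean change of the others, from 0.598 for *Noc4l* to 0.992 for *Ddx21* (tested genes against the score change, 0.02).

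Across leukemias the levels of the members were compared with the level of *Myc* in the same way. The slope was positive and passed in 41 of 42 members (limma, Benjamini-Hochberg adjusted p under 0.05), against 11.7% of tested genes, and *Bysl*, which overlaps *Ccnd3*, was the exception (slope 0.27, limma adjusted p = 0.12). The steepest were *Ppan* (1.02 per log2 unit of *Myc*), *Bop1* (0.86), *Utp4* (0.79), *Polr1b* (0.78), *Rrp12* (0.74), *Nolc1* (0.74), *Dkc1* (0.72) and *Ddx21* (0.71). The median slope of the members was 0.59, against -0.03 over all genes tested. Of the marker genes tested, 3 of 6 myeloid genes had a negative slope past the threshold and 0 a positive one (median -1.09), as against 2 negative and 1 positive of 12 T lineage genes (median -0.32) and 0 of 7 erythroid genes (median -0.57) and 0 of 1 B lineage gene. Their part in the members' slopes was not tested. *Bop1* is the member that lies on chromosome 15, which also carries *Myc*.

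The number of calls changed with 8633 and JW14, whose *Myc* levels (116.7 and 95.5 FPKM) were at least 2.19 times those of the other 7 leukemias (29.8 to 43.7 FPKM). Without JW14 the count was 2 (0.785% of tested genes had a positive slope past the threshold) and without 8633 it was 18 (1.91%). With both averaged as 1 leukemia it was 4 (0.697%). In these 3 settings the median slope was 0.55, 0.73 and 0.64, and 41 members were positive at an unadjusted p under 0.05. The share of all tested genes at that unadjusted cut was not counted for these settings or for those that follow. Without 8633 and JW14 the count was 0 by limma, with a median slope of 1.16, 33 members at an unadjusted p under 0.05 and 0.0% of tested genes called. In VEH libraries alone it was 0, with a median slope of 0.59, 30 at an unadjusted p under 0.05 and 0.0% of tested genes positive, and in DEX libraries alone 41 (13.7%), with a median slope of 0.49. Over the 7 other leukemias, as a description, the score had r = 0.81 and rho = 0.82 with *Myc*. It had r = 0.063 in their VEH libraries, 0.80 in their DEX libraries and, over both, 0.50 without 5C. Of the 7, 5C had the highest mean score with the highest mean *Myc*, but in VEH libraries it had the highest score with the lowest *Myc*. Among members, r over these 7 was highest for *Gar1* (0.92), *Tsr1* (0.90) and *Npm3* (0.89) and lowest for *Nop56* (0.37), *Gnl3* (0.40) and *Bop1* (0.48).

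Other genes of ribosome biogenesis were set beside the members, without a test of the difference. Of 107 further genes on 6 lists 101 were tested, and 14 fell and 2 rose in DEX libraries (edgeR, adjusted p under 0.05), against 6.79% and 6.22% of all genes tested, with a median log2 fold change of -0.08. By list, 7 of 24 other small subunit processome genes fell, 3 of 13 other polymerase I genes, 3 of 31 other 60S assembly genes, 1 of 9 other snoRNP genes, 0 of 12 RNA exosome genes and 0 of 12 genes of export and late maturation. *Taf1c*, of the polymerase I initiation factor SL1, and *Exosc9*, of the exosome, were the 2 that rose. Against *Myc* across leukemias, 60 of the 101 had a positive slope past the threshold and 0 a negative one, against 11.7% of tested genes with a positive slope.

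Some members also carry snoRNA genes in their own transcription units, as GENCODE release M21 annotates them. This held for 8 of 42 members (19.05%), *Ncl*, *Nop56*, *Nop58*, *Dkc1*, *Wdr43*, *Ppan*, *Gnl3* and *Tsr1*, against 1.85% of 10013 protein-coding genes tested. Of these hosts 5 of 8 fell in DEX libraries, compared with 11 of the other 34 members. Of the 8 members with an E-box in the window shown above 4 fell, *Nop2*, *Utp4*, *Tsr1* and *Utp18*, compared with 11 of 29 with a window that lacked it. Slopes against *Myc* had medians of 0.59 with and 0.57 without the E-box. Neither feature was tested for a difference.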

How the data were processed

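The authors aligned paired-end poly(A) TruSeq reads to mm10 with Bowtie 2 and quantified transcripts with RSEM; the annotation is not given in the sources used here. Per gene, the authors deposited RSEM expected counts, neither scaled to depth nor length (68.3% to 74.5% of nonzero values in a library were exactly whole as written, although the table is named for FPKM), and they were rounded for count tests. The 20 columns were matched by leukemia, the DEX columns of 2M, 73A and 4638 by name alone because the rest of these 3 column names is in no label. FPKM were calculated from the expected counts, library totals and merged exon lengths of GENCODE M21 (37693 genes, 96.6%). For a gene with 1 kb of exon, 3 counts came to between 0.0149 and 0.365 FPKM, which covers counting error only.

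DEX and VEH columns were compared with edgeR 4.0.16 in R 4.3.3 (quasi-likelihood test, TMM, genes averaging 1 FPKM or more, leukemia as a block since both libraries come from 1 leukemia, Benjamini-Hochberg adjustment, threshold 0.05). Standard errors were derived from the F statistic. Leukemias were compared in the same fit. Slopes against *Myc* were fitted with limma 3.58.1 on log2(FPKM + 1), 1 value per leukemia; this scale understates changes of low genes. DESeq2 1.42.0 was an alternative, and scripts were tested on simulated data. Scores, motifs and correlations came from Python 3.11.15 (pandas 2.3.3, scipy 1.17.1, numpy 2.4.6); transcripts were compared with blastn 2.17.0. No leukemia has replicate libraries of 1 name. The p-values of DEX against VEH thus measure how the difference of the paired libraries varied between these leukemias. Those between leukemias set leukemias against the disagreement of the 2 libraries of a leukemia, after the mean DEX and VEH difference. Those of slopes measure the scatter of leukemias around the line. Each can include technical spread. Scores over members and correlations carry no p.

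The members and lists were chosen with earlier results of these data known. Named genes were 23 fixed members; members past the threshold in DEX against VEH (at most 12 by fold change, although the remaining called members are also given); the 3 highest and 3 lowest by level and by spread; and against *Myc* at most 8 by slope and 3 at each end of r. The other genes named were chosen after their values were seen. Alternatives were RLE factors, other filters, a pseudocount of 0.1, log2 CPM, each leukemia left out, 4638 added, no block, the ribosomal RNA libraries as a term or apart, and VEH or DEX columns alone. The donors' genotypes and 1 marker gene's own level are not reported here. Chosen after seeing the data were leaving out or averaging 8633 and JW14, leaving out 2M and 73A, and thinning.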

Additional observations from a re-analysis of the deposited data

How the results depend on the processing

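The count of members that fell in DEX libraries (16) was 4 to 18 with each leukemia left out (2.95% to 8.97% of all genes lower). It was 0 with no leukemia block (edgeR, 0 at an unadjusted p under 0.05; 8 genes in all against 1475), 2 with the ribosomal RNA libraries as a term (465 genes), 4 in the leukemias without such a library (475), 0 in those with one (15) and 0 without 2M and 73A (194). The calls thus depended on the pairing of the 2 libraries of a leukemia. With the pairing kept, they also depended on which leukemias were included and on how the ribosomal RNA libraries were treated. With RLE factors, other filters, 4638 added, thinned libraries, DESeq2 or without 8633 and JW14 the count was 14 to 21 (3.63% to 10.1% of all genes lower). In each of these settings 0 members rose. All genes called were 654 to 2041 with 1 leukemia left out. Members called against *Myc* across leukemias (41) were 2 to 42 with 1 leukemia left out (0.785% to 14.6% of tested genes called positive). The count was 4 with 8633 and JW14 averaged (0.697%), and 0 without both or in VEH libraries alone (0.0% each). In the other settings it was 33 to 41 (6.56% to 13.7%). Median slopes were 0.49 to 1.16 throughout. At an unadjusted p under 0.05, 30 to 42 members were positive, and all tested genes were not counted at that cut. Members called between leukemias were 41 or 42 (46.7% to 87.2% of genes tested), and against the *Myc* change 0 (0.0% to 0.0176%), in every setting run. The r of the score with *Myc* over 7 leukemias (0.81) was 0.063 in VEH libraries alone, and 0.50 to 0.96 with 1 left out or with 4638 added.

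Some log2 fold changes that did not pass changed sign. *Ncl* (-0.02) was at -0.062 to 0.016 with 1 leukemia left out, at 0.016 without 20M, 0.0097 without 73A, 0.0095 without 2M and 73A, 0.0069 with 4638 added and 0.013 with no leukemia block. *Fbl* (0.016) was at -0.019 with all genes with any count, -0.044 to 0.066 with 1 leukemia left out (negative without 73M, 8633, JW14 or JW81), -0.0053 with 4638 added, -0.011 with the ribosomal RNA term, -0.093 in leukemias without such a library and -0.043 without 8633 and JW14. *Pes1* (0.025) was at -0.010 with all genes with any count, -0.018 to 0.064 with 1 leukemia left out (negative without 73M or JW81), -0.025 with the ribosomal RNA term, -0.084 in leukemias without such a library and -0.027 without 8633 and JW14. *Noc4l* (0.040) was at -0.0087 with the term, -0.073 without such libraries and -0.0061 without 8633 and JW14. *Npm3* was at -0.065 in leukemias without a ribosomal RNA library. In leukemias with one, *Bop1* (-0.13) was at 0.023, *Rrp9* (-0.24) at 0.056 and *Mybbp1a* (-0.10) at 0.031, and in those without one at -0.33, -0.61 and -0.28. The cause was not tested. The smallest count of a member in a library was 160, for *Gar1*, whose log2 fold change was -0.15, and -0.09 with libraries thinned to the smallest total.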

Other observations

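The 2 libraries of leukemia 4638, which the comparisons leave out, gave a member score of 4.23 in VEH and 4.20 in DEX, with 25 of 42 members lower in DEX. *Myc* was at 58.3 FPKM in VEH and 68.5 FPKM in DEX. The myeloid score there was 4.43 in VEH and 4.23 in DEX, above the 3.07 that was the highest in the other 9 leukemias, and the T lineage score was 3.71 and 3.36. *Gnl3* was at 15.0 FPKM in VEH and 13.9 FPKM in DEX, *Nop2* at 26.4 and 25.9 FPKM, and *Polr1b* at 16.6 and 17.0 FPKM.

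Of 88 sets of 9 values checked for a sample far from the others, the DEX minus VEH changes and levels of the members among them, 0 exceeded Dixon's critical value. The check rests on the gap to the nearest value, so leukemias that lie far out together can escape it. JW14 and 8633 lay together in this way, both above all other leukemias in 36 of 42 members. Their *Myc* levels were 95.5 and 116.7 FPKM, against at most 43.7 FPKM in the others. The check thus cannot decide whether these leukemias stood apart.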
